A study of Mus musculus with 6 samples.

Results

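The group described here consists of 9 imprinted genes and overlapping gene models of the mouse, out of 21958 protein-coding genes listed. They are Snrpn, Snurf, Gm38393, Ube3a, Ndn, Gnas, Gm20721, Peg3 and Impact. Not every listed gene had a count. The members were chosen by name from the deposited table with their counts in both groups known, so the difference between the groups is given for them as a description. The RNA came from synaptoneurosomes, pinched-off pre- and postsynaptic particles of brain homogenate, prepared from the hippocampus and neighbouring cortex of FVB mice aged 6 to 8 weeks. One group, with 3 libraries, holds polyribosomal RNA of synaptoneurosomes given a pulse of 50 µM NMDA and 10 µM glutamate for 30 s, then 120 µM of the NMDA receptor blocker APV, and incubated for 20 min. The other group, with 3 libraries, holds total RNA of unstimulated synaptoneurosomes. The labels give no allele or treatment beyond these, and several mice were pooled for a preparation. Stimulation and fraction changed together, so their parts in any difference cannot be told apart. The study's methods also describe warming of the stimulated aliquots, whereas unstimulated controls were kept on ice with the translation inhibitor cycloheximide. Where this held for the total RNA, temperature and inhibitor differed between the groups as well and cannot be told apart from the rest.

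An imprinted gene is transcribed mainly or only from the copy inherited from 1 parent. Often this is because a control region was marked by DNA methylation in the germ line of 1 parent. In brain, Snrpn, Snurf, Ndn, Peg3 and Impact are known as paternally expressed genes, whereas Ube3a is expressed from the maternal copy in neurons, where a long noncoding antisense transcript from the Snrpn promoter silences the paternal copy. Gnas uses several alternative first exons that are imprinted in opposite directions. The counts are per gene and the mice were inbred, so neither the parental copy nor the promoter of a read was measured.

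The polyribosomal libraries held 5294482 to 7361580 counts and the total RNA libraries 1044955 to 3738022, the shallowest being replicate 3 of total RNA. The members took 0.145 to 0.166% of the counts of a polyribosomal library and 0.146 to 0.174% of those of a total RNA library. Levels are given as CPM, counts per 1000000 after TMM scaling, and differences as log2 of polyribosomes over total RNA with the standard error (SE) of an edgeR fit over the 12255 genes that passed a filter on low counts. From the counts of a bulk sample alone, fewer particles of a cell type and less RNA per particle cannot be told apart. Every marker listed for each cell type was detected: the summed level of 10 neuronal genes was 10230 to 13030 CPM on polyribosomes and 8908 to 10770 CPM in total RNA, and that of 6 astrocyte genes 36310 to 38350 against 29780 to 33720 CPM. The 6 oligodendrocyte genes summed to 10260 to 14160 against 7563 to 10680 CPM, the 6 microglial genes to 709 to 840 against 469 to 638 CPM, and the 6 endothelial genes to 260 to 480 against 273 to 313 CPM. A sum can rest on 1 gene: Slc1a2 alone had a mean of 31980 CPM on polyribosomes and 27870 CPM in total RNA. The log2 difference was positive for 7 neuronal genes and negative for 3, and positive for 4 endothelial genes and negative for 2. It was positive for all 6 astrocyte, all 6 oligodendrocyte and all 6 microglial genes, beside 50.1% of all genes tested. Libraries with the same replicate number came from aliquots of the same preparation and so began with the same mix of particles. The marker sums thus do not measure a difference in starting cell type composition between the groups. The part of these marker differences in the differences of the members was not tested.

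Snrpn encodes SmN, a neuronal Sm protein of the spliceosomal small nuclear ribonucleoproteins, and its transcript also carries, upstream, the reading frame of Snurf, a small basic protein. Both lie on the minus strand of chromosome 7 (GRCm38), Snrpn at chr7:59982495-60140219 and Snurf at chr7:59995449-60005049. The model Gm38393 at chr7:59974149-60005064, begins with the same exons, skips the Snrpn coding exons downstream and ends beyond the Snrpn 3′ end. In the GENCODE vM21 basic annotation, 216 of the 216 exonic bases of Snurf lay inside exons of both Snrpn and Gm38393, and 324 of the 1199 exonic bases of Gm38393 lay inside exons of Snrpn. The Snurf frame is shown because all of it is contained in the annotated transcript of Gm38393, from its base 16, and in 1 of the 2 of Snrpn, from its base 63, and a read from it therefore has 3 possible genes. The start codon and the stop codon are in capitals, and the sequence is that of the minus strand.
Snurf: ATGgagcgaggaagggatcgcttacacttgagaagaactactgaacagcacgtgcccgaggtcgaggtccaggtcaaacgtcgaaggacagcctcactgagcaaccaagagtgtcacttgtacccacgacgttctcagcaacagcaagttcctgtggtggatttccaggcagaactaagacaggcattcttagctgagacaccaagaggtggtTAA

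**Figure D1:**
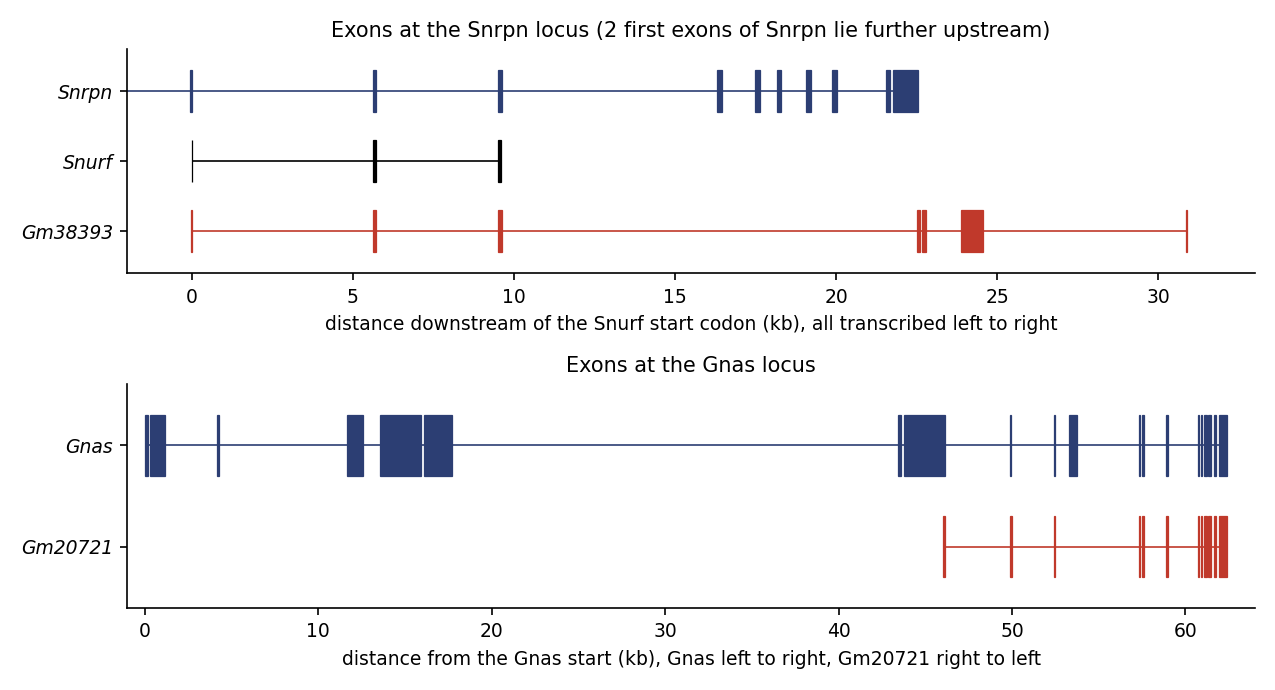
Exons (boxes) of the overlapping members drawn to scale, as distance in kb from the Snurf start codon (upper panel) and from the Gnas start (lower panel). The 3 short exons of Snurf line up with exons of Snrpn and of Gm38393, and 12 of the 13 exons of Gm20721 line up with exons of Gnas, which is read in the opposite direction.

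Snurf had 0 counts in all 6 libraries. A count of 0 allows up to 3 counts a library, which was 0.408 CPM in the deepest library and 2.87 CPM in the shallowest, counting error only. The value does not describe the Snurf transcript, since the table gave few counts to genes of this kind: of 60 genes with every exonic base shared with another gene of the table on the same strand, 54 had 0 counts in every library, against 5044 of 21728 genes overall. Outside exons of any other annotated gene on the strand, Snrpn had 1835 exonic bases and Gm38393 had 778 (875 where genes that are not in the table are disregarded), on which their counts mainly rest where reads with several possible genes were left out.

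Snrpn was about as abundant in both groups. Its counts were 795, 596 and 283 on polyribosomes, and 385, 300 and 73 in total RNA, for replicates 1 to 3. Its levels were 108, 89.8 and 58.3 CPM on polyribosomes, with a mean of 85.2 ± 25.0 CPM (SD, n = 3), and 95.6, 101 and 70.0 CPM in total RNA, with a mean of 88.7 ± 16.4 CPM (SD, n = 3). The groups overlapped, and replicate 3 was the lowest of its group in both. The log2 difference of -0.076 (SE 0.22) was smaller than its error, and its sign turned without replicate 3 of polyribosomes (0.13), without replicate 2 of total RNA (0.020) and with all libraries thinned to the shallowest (0.090).

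Gm38393 was the member with the lowest polyribosome level relative to total RNA. It had 132, 128 and 46 counts on polyribosomes, against 247, 281 and 58 in the total RNA libraries, which were shallower. Its levels were 17.9, 19.3 and 9.47 CPM on polyribosomes (15.5 ± 5.30 CPM, SD, n = 3) and 61.3, 94.1 and 55.6 CPM in total RNA (70.4 ± 20.8 CPM, SD, n = 3). The groups did not overlap, the highest polyribosomal library standing below the lowest library of total RNA. The level was 4.53-fold lower on polyribosomes, a log2 difference of -2.18 (SE 0.26), and -1.78, -2.29 and -2.55 within the 3 pairs of libraries with the same replicate number.

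Set against Snrpn in the same library, the Gm38393 counts came to 16.6, 21.5 and 16.3% of the Snrpn counts on polyribosomes and 64.2, 93.7 and 79.5% in total RNA. The mean ratios were 18.1 ± 2.92% and 79.1 ± 14.8% (SD, n = 3). This ratio is taken within a library and does not depend on depth or scaling. Per kb of unshared exon, the mean level of Gm38393 was 20.0 CPM on polyribosomes and 90.4 CPM in total RNA, and that of Snrpn was 46.4 and 48.3 CPM, so the order of the 2 models was reversed between the groups. With the overlapping models of the locus added up, the log2 difference was -0.67, most of which came from Gm38393, since Snrpn alone gave -0.076.

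Ube3a, at chr7:59228750-59311536 on the plus strand, encodes the HECT-type ubiquitin ligase that is lost in Angelman syndrome. Counts were 810, 736 and 322 on polyribosomes, while total RNA gave 590, 470 and 121. The levels were 110, 111 and 66.3 CPM on polyribosomes (95.6 ± 25.4 CPM, SD, n = 3) and 147, 157 and 116 CPM in total RNA (140 ± 21.4 CPM, SD, n = 3). The groups did not overlap, although the lowest library of total RNA stood only just above the 2 higher polyribosomal libraries. Replicate 3 was the lowest of both groups, as for Snrpn. The log2 difference was -0.56 (SE 0.21), or 1.47-fold lower on polyribosomes, and -0.42, -0.51 and -0.81 within the pairs. It was past the threshold only with the replicate number as a block.

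Exons of 3 genes lay opposite exons of Ube3a, among them Snhg14, the host of the antisense transcript, with 1803 bases. None of the 3 was in the table, so the antisense RNA was not analysed here. Neither Ube3a nor any of the other members outside the Snrpn and Gnas loci overlapped another gene of the table.

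Ndn, at chr7:62348277-62349928 on the plus strand, encodes necdin, a protein of the MAGE family that restrains proliferation and promotes survival of neurons. Its levels were 114, 126 and 179 CPM on polyribosomes (140 ± 34.4 CPM, SD, n = 3), from 845, 833 and 868 counts, and 99.6, 92.4 and 135 CPM in total RNA (109 ± 22.9 CPM, SD, n = 3), from 401, 276 and 141 counts. The groups overlapped, and here replicate 3 was the highest of both groups, opposite to Snrpn and Ube3a. The log2 difference was 0.37 (SE 0.20), and each pair was higher on polyribosomes, by 0.20, 0.44 and 0.40.

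The other imprinted genes near Ndn were hardly detected. They were picked after their values were seen. Magel2, another MAGE gene, had 22 counts in the 3 polyribosomal libraries together and 6 in total RNA, Mkrn3, a ring-finger ubiquitin ligase, had 22 and 18, and Peg12 had 10 and 4. None of the 3 passed the filter on low counts, so Ndn was the only imprinted gene of this stretch with enough counts to be tested.

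Gnas, at chr2:174284320-174346744 on the plus strand, encodes the stimulatory G protein alpha subunit that couples receptors to adenylyl cyclase, along with further proteins from upstream promoters. It had 6993, 6303 and 4592 counts on polyribosomes, and 2884, 2334 and 686 in total RNA. Its levels were 946, 949 and 945 CPM on polyribosomes (947 ± 2.17 CPM, SD, n = 3) and 716, 782 and 658 CPM in total RNA (719 ± 61.9 CPM, SD, n = 3). The groups did not overlap and the polyribosomal libraries were nearly identical. The level was 1.32-fold higher on polyribosomes, a log2 difference of 0.40 (SE 0.17), with 0.40, 0.28 and 0.52 within the pairs, and it passed the threshold only with the replicate number as a block.

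Gm20721, at chr2:174330319-174346712 on the minus strand, is a gene model that lies wholly within the Gnas span and mirrors its exons. Of its 1484 exonic bases, 1469 (99.0%) lay opposite exonic bases of Gnas, and 4 of its 13 exons had exactly the boundaries of a Gnas exon. One of these is shown, a coding exon of Gnas at chr2:174345383-174345562, on each strand, because the pair shows that the 2 models differ here only in strand. The capitals mark the first 10 bases of the Gm20721 exon and the last 10 of the Gnas exon, the same base pairs read from opposite strands.
Gm20721, minus strand: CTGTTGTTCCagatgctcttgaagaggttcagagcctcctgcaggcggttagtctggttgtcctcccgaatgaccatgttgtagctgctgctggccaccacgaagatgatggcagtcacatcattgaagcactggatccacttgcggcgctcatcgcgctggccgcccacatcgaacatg
Gnas, plus strand: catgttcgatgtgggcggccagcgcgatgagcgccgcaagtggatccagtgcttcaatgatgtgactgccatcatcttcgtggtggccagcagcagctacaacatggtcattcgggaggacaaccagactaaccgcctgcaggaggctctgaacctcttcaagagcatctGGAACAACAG

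Gm20721 was the member with the highest polyribosome level relative to total RNA. Counts on polyribosomes were 449, 223 and 297, and in total RNA 78, 34 and 10. The levels were 60.7, 33.6 and 61.2 CPM on polyribosomes (51.8 ± 15.8 CPM, SD, n = 3) and 19.4, 11.4 and 9.59 CPM in total RNA (13.5 ± 5.21 CPM, SD, n = 3). The groups did not overlap, and the lowest polyribosomal library stood well above the highest library of total RNA. The level was 3.58-fold higher on polyribosomes, a log2 difference of 1.84 (SE 0.28), with 1.65, 1.56 and 2.67 within the pairs, and it no longer passed the threshold without replicate 2 of total RNA (1.69).

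Set against Gnas in the same library, the Gm20721 counts came to 6.42, 3.54 and 6.47% of the Gnas counts on polyribosomes and 2.71, 1.46 and 1.46% in total RNA, with means of 5.48 ± 1.68% and 1.87 ± 0.720% (SD, n = 3). The increase of Gm20721 was thus larger than that of the gene opposite to it, and the lowest ratio on polyribosomes exceeded the highest in total RNA. Added to Gnas, it moved the log2 difference of the locus from 0.40 to 0.45.

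The strand was used in the counting, as the table itself shows. Of 53 genes with at least 80% of their exonic bases opposite a gene of the table and none shared on the same strand, 12 had 0 counts in every library and 27 had at least 10 counts, whereas genes fully shared on the same strand were nearly all at 0. Genes of the opposite kind were set beside Gm20721 after the values had been seen. Of the 29 with a partner of at least 100 counts in each group, 24 had a higher and 3 a lower percentage of the partner's counts on polyribosomes than in total RNA, and 2 had no count. Most rested on very few counts, since 19 of the 29 had 3 or fewer in the shallower total RNA libraries together, so the direction of most of them cannot be read. Of the 8 with at least 10 counts of their own in total RNA, Gm20721 among them, 7 had the higher percentage on polyribosomes and 1 the lower. The part of the strand assignment in the values of Gm20721 was not tested.

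**Figure D2:**
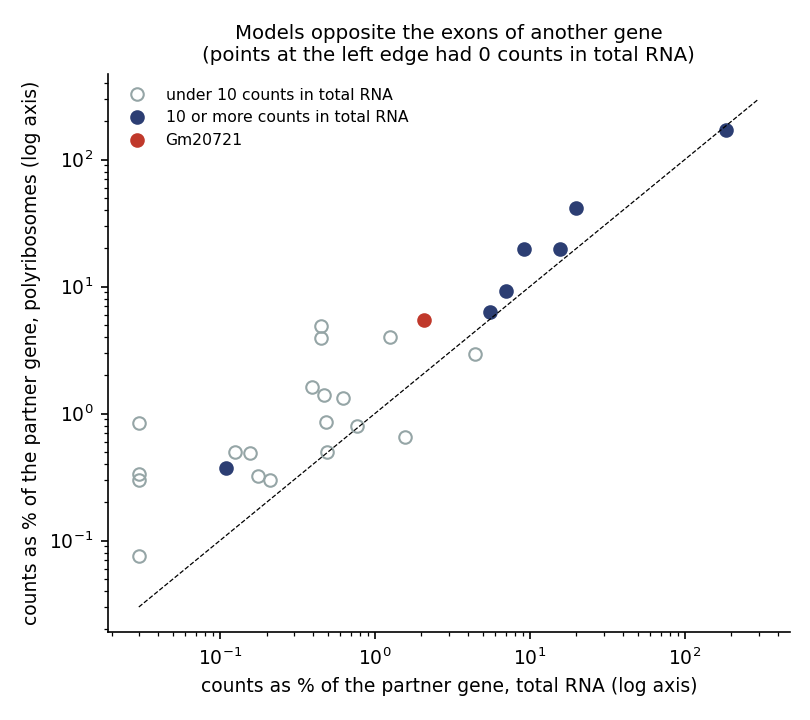
Counts of gene models that lie opposite the exons of another gene, as a percentage of that gene's counts over the summed libraries, in total RNA (x axis) and on polyribosomes (y axis), both on log axes, with the dashed line marking equal percentages. Open circles are models with under 10 counts in total RNA, and of the 8 filled ones, 7 lie above the line, with Gm20721 at 2.07% and 5.42%.

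Peg3, at chr7:6703892-6730421 on the minus strand, encodes a large zinc-finger protein of the nucleus and lies far from the Snrpn domain. It had 1625, 1484 and 916 counts on polyribosomes, compared with 1482, 923 and 361 in total RNA. The levels were 220, 224 and 189 CPM on polyribosomes (211 ± 19.2 CPM, SD, n = 3) and 368, 309 and 346 CPM in total RNA (341 ± 29.8 CPM, SD, n = 3). The groups did not overlap, and the gap between them was larger than the range within either. The level was 1.62-fold lower on polyribosomes, a log2 difference of -0.69 (SE 0.17), and -0.74, -0.47 and -0.88 within the pairs. Peg3 passed the threshold with the replicate number as a block and with DESeq2, though not in the edgeR fit with group alone.

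Impact, at chr18:12972252-12992948 on the plus strand, encodes a protein that binds Gcn1 and so limits the activation of the kinase Gcn2, which slows translation when amino acids are short. Levels of 73.5, 74.9 and 73.3 CPM on polyribosomes (73.9 ± 0.863 CPM, SD, n = 3) came from 543, 497 and 356 counts, and levels of 112, 102 and 74.8 CPM in total RNA (96.4 ± 19.4 CPM, SD, n = 3) from 452, 305 and 78 counts. The polyribosomal libraries were nearly the same, and replicate 3 of total RNA fell among them, so the groups overlapped. The log2 difference was -0.41 (SE 0.17), with -0.61, -0.45 and -0.029 within the pairs, and it passed the threshold only with the replicate number as a block.

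**Figure D3:**
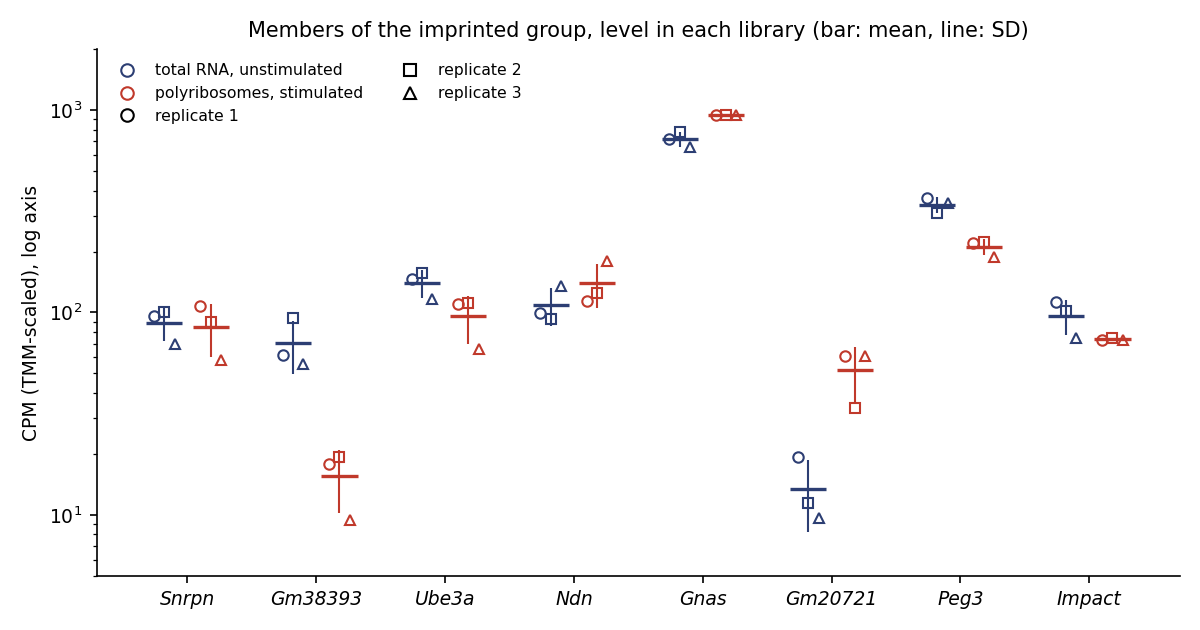
Level of each tested member in each library (CPM, log axis), with total RNA in blue and polyribosomes in red. Symbols are replicates 1 to 3, horizontal bars are means and vertical lines are SDs (n = 3). The groups are apart for Gm38393, Ube3a, Gnas, Gm20721 and Peg3, and overlap for Snrpn, Ndn and Impact.

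Per kb of exon not shared on the same strand, which allows levels to be compared between genes, Gnas had the highest mean level on polyribosomes, with 91.3 CPM per kb, followed by Ndn (84.4), Snrpn (46.4), Gm20721 (34.9), Peg3 (24.2), Impact (21.5), Gm38393 (20.0) and Ube3a (8.73). In total RNA the order by level was Gm38393 (90.4 CPM per kb), Gnas (69.3), Ndn (66.0), Snrpn (48.3), Peg3 (39.2), Impact (28.1), Ube3a (12.8) and Gm20721 (9.06). Gm38393 and Gm20721 changed places most, from rank 1 in total RNA to 7 on polyribosomes and from rank 8 to 4, while the other 6 kept their order among themselves. Neighbours in these orders were not tested against each other. Exons were those of vM21 within the span that the table gives, so every annotated exon counts toward the length, whether or not these cells use it. For Gm38393 the length was 778 of 1199 exonic bases. Counted fragments that reached its shared exons would make its level per kb, and its rank in total RNA, too high.

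Of the 9 members, 8 passed the filter on low counts, and Snurf, at 0, did not. At an adjusted p under 0.01, 1 of the 8 was higher on polyribosomes (Gm20721) and 1 was lower (Gm38393), beside 0.71% and 2.36% of all 12255 genes tested. With the replicate number as a block, 2 were higher (Gm20721 and Gnas) and 4 were lower (Gm38393, Ube3a, Peg3 and Impact), beside 11.8% and 13.2% of all genes. Nothing is read from these counts, since the same contrast was known when the members were chosen. The groups did not overlap for 2 members that were higher and 3 that were lower on polyribosomes, beside 17.4% and 18.9% of all genes.

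**Figure D4:**
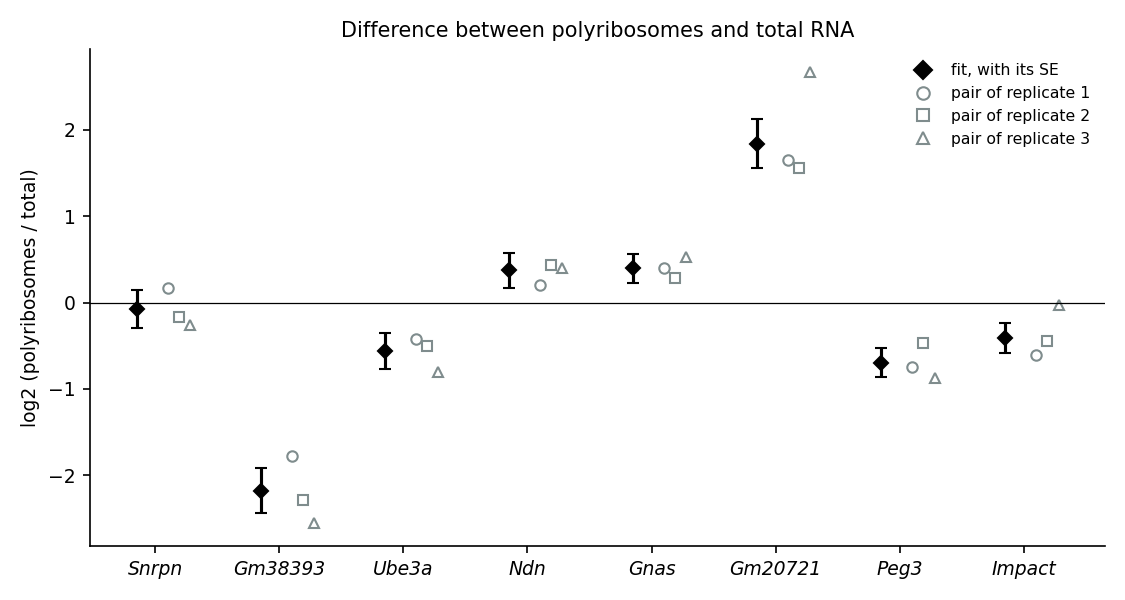
Difference between polyribosomes and total RNA for each tested member, as log2 of the ratio. Diamonds are the fitted differences with their SE (n = 3 libraries per group), and open symbols are the ratios of libraries with the same replicate number. The pairs of Snrpn lie on both sides of 0, while those of the other members lie on 1 side each, from -2.55 for Gm38393 to 2.67 for Gm20721.

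The members were set beside 70 other genes imprinted in mouse, of which 68 were in the table, 67 had a count and 49 passed the filter. None of the 49 was past the threshold in the edgeR fit, and 24 had a positive and 25 a negative log2 difference, with a median of -0.069 and a range from -0.92 to 0.88. At an unadjusted p under 0.05, 7 were higher and 10 lower, beside 15.4% and 17.1% of all genes. DESeq2 called 3 higher and 0 lower, beside 2.19% and 3.28% of all genes, and the replicate block called 6 higher and 7 lower, beside 11.8% and 13.2%. The differences of Gm38393 and Gm20721 lay outside the range of these genes, and those of the other 6 tested members lay inside it. Nothing is read from this, since the members were chosen with the same contrast known. Gm38393 and Gm20721 are overlapping gene models, and their imprinting was not measured.

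**Figure D5:**
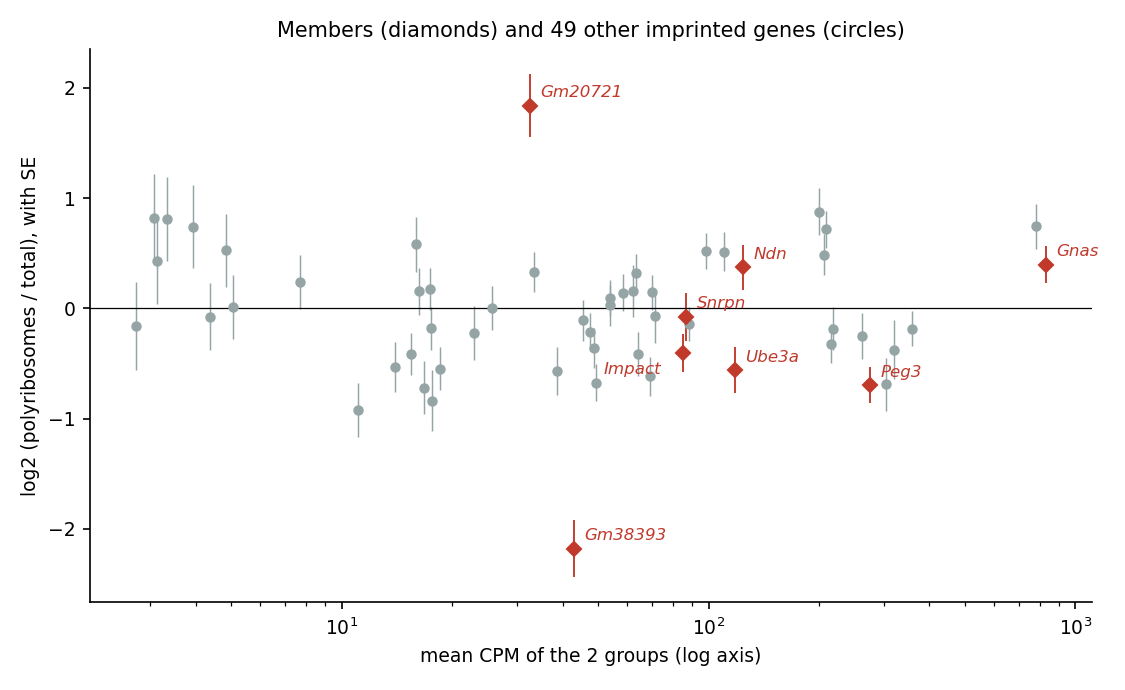
Difference between polyribosomes and total RNA (log2, with SE) against the mean CPM of both groups (log axis) for the 8 tested members (red diamonds) and 49 other imprinted genes (grey circles). The other genes spread from -0.92 to 0.88 on both sides of 0, with Gm38393 below and Gm20721 above all of them. The members were chosen with this difference known.

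The 2 most abundant of these genes were Cd81, a tetraspanin of the cell surface, and Rasgrf1, a neuronal exchange factor for Ras. Cd81 had 980 ± 283 CPM on polyribosomes and 586 ± 31.6 CPM in total RNA (SD, n = 3), a log2 difference of 0.74 (SE 0.20, edgeR adjusted p = 0.028), and was called higher with the replicate block. Rasgrf1 had 335 ± 24.4 and 380 ± 8.92 CPM (SD, n = 3), a log2 difference of -0.18 (SE 0.16, edgeR adjusted p = 0.45). In both, the libraries of the groups did not overlap, beside 17.4% of all genes without overlap that were higher and 18.9% that were lower. Rasgrf1 was not called in spite of this.

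All 7 Sm core proteins, which form the ring around small nuclear RNA that SmN joins in place of SmB, had a positive log2 difference with TMM, DESeq2 size factors, upper quartiles and total counts alone, with a median of 0.55 and the smallest, of Snrpe, within its SE of 0 at 0.22 (SE 0.25). None passed the threshold, 3 were higher at an unadjusted p under 0.05 beside 15.4% of all genes, the replicate block called 1 higher, Snrpd2, beside 11.8%, and DESeq2 called 0. Snrpd2 had 34.9 ± 7.16 CPM on polyribosomes and 20.9 ± 1.61 CPM in total RNA (SD, n = 3), a log2 difference of 0.73 (SE 0.20, edgeR adjusted p = 0.029). Snrpb, which encodes SmB, had 36.9 ± 17.9 and 28.4 ± 17.8 CPM (SD, n = 3), a log2 difference of 0.55 (SE 0.37, edgeR adjusted p = 0.32). The median of all genes tested was 0.001, and Snrpf, 1 of the 7, also lies opposite exons of another gene.

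Among 7 partners and HECT relatives of Ube3a, the log2 difference was negative with the same 4 scalings, with a median of -0.39, although those of Ube3b (-0.023, SE 0.17) and Ube2l3 (-0.038, SE 0.19) were smaller than their errors. Over all genes tested the median was 0.001, and 50.1% were positive. Ube2d3, a ubiquitin-conjugating enzyme, was the only 1 of the 7 past the threshold, beside 2.36% of all genes called lower. It had 53.6 ± 12.1 CPM on polyribosomes and 116 ± 21.2 CPM in total RNA (SD, n = 3), a log2 difference of -1.12 (SE 0.20, edgeR adjusted p = 0.0040). At an unadjusted p under 0.05, 0 were higher and 4 lower, beside 15.4% and 17.1% of all genes. DESeq2 called 0 higher and 1 lower, beside 2.19% and 3.28%. With the replicate number as a block 4 of the 7 were lower, beside 13.2% of all genes: Ube2d3, Ube2d1, Ube3c and Herc2, the last a large HECT protein that binds Ube3a.

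The Gs and cAMP pathway, in which Gnas acts, showed no common direction. Of 16 genes 11 had a positive and 5 a negative log2 difference, with a median of 0.070 and none past the threshold. At an unadjusted p under 0.05, 0 were higher and 2 lower, beside 15.4% and 17.1% of all genes, DESeq2 called 0, and the block called 2 lower, beside 13.2%, the protein kinase A subunits Prkacb and Prkar2b. Adcy1, the calmodulin-stimulated adenylyl cyclase of neurons, had 2787 ± 445 CPM on polyribosomes and 2921 ± 900 CPM in total RNA (SD, n = 3), a log2 difference of -0.067 (SE 0.22, edgeR adjusted p = 0.87). Adcy2 had 382 ± 59.4 and 344 ± 44.5 CPM (SD, n = 3), a log2 difference of 0.15 (SE 0.18, edgeR adjusted p = 0.61).

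For Impact, 7 genes of the Gcn2 and integrated stress response pathway were tested. Of these 2 had a positive and 5 a negative log2 difference, the median was -0.097, and none passed the threshold in edgeR, with the block or in DESeq2, with 1 lower at an unadjusted p under 0.05 beside 17.1% of all genes. Gcn1l1, which encodes the Gcn1 protein that Impact binds, had 100 ± 12.2 CPM on polyribosomes and 99.0 ± 3.996 CPM in total RNA (SD, n = 3), a log2 difference of 0.017 (SE 0.16, edgeR adjusted p = 0.96). Ppp1r15b, a regulatory subunit of the phosphatase for eIF2alpha, had 95.9 ± 20.0 and 109 ± 20.9 CPM (SD, n = 3), a log2 difference of -0.21 (SE 0.20, edgeR adjusted p = 0.50).

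For Ndn, 6 other MAGE genes were tested, 4 of them with a positive and 2 with a negative log2 difference and a median of 0.18. None passed the threshold, 2 were higher at an unadjusted p under 0.05 beside 15.4% of all genes, DESeq2 called 0, and the block called 1 higher, Mageh1, beside 11.8%. Maged1, the most abundant of them, had 297 ± 31.0 CPM on polyribosomes and 299 ± 17.7 CPM in total RNA (SD, n = 3), a log2 difference of -0.0091 (SE 0.16, edgeR adjusted p = 0.98). Magee1 had 104 ± 16.2 and 101 ± 9.81 CPM (SD, n = 3), a log2 difference of 0.051 (SE 0.17, edgeR adjusted p = 0.87).

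The tested genes next to the imprinted loci were compared with the members. Beside the Snrpn-Ube3a span, Atp10a, a phospholipid flippase 399 kb from Ube3a, had a log2 difference of -0.54 (SE 0.23, edgeR adjusted p = 0.12), close to that of Ube3a. Atp10a is also in the list of other imprinted genes. On the other side the nearest tested genes lay beyond Ndn, 2958 and 3305 kb from Snrpn. Of these, Chrna7, a nicotinic receptor subunit, had 0.29 (SE 0.19, edgeR adjusted p = 0.31) and Otud7a, a deubiquitinase, 0.37 (SE 0.18, edgeR adjusted p = 0.16). Atp10a had the sign of Ube3a, and Chrna7 and Otud7a had the sign of Ndn and not that of Snrpn (-0.076). None of the 3 passed the threshold. Nothing is read from these signs, since 50.1% of all genes tested had a positive difference.

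Around Gnas, Nelfcd, a subunit of the negative elongation factor 69.1 kb away, had a log2 difference of 0.30 (SE 0.21, edgeR adjusted p = 0.35), and Ctsz, the protease cathepsin Z, had 0.75 (SE 0.19, edgeR adjusted p = 0.022). On the other side Npepl1, a probable aminopeptidase, had 0.87 (SE 0.29, edgeR adjusted p = 0.054) and Stx16, a syntaxin of the trans-Golgi, -0.45 (SE 0.19, edgeR adjusted p = 0.11). Ctsz and Npepl1 were called higher with the replicate block, and the neighbours of Gnas had no common direction.

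Across the 6 libraries, the genes whose log2 CPM was most like that of Snrpn, out of 8952 with a mean of at least 10 CPM, were Gng12 (Pearson r = 0.994), Ppm1b (0.991) and Tlr3 (0.989). Most like Ube3a were Galnt13 (0.997), Ogfrl1 (0.997) and Abhd5 (0.996), and most like Gnas were Rcn2 (0.998), Slc25a34 (0.998) and P4hb (0.995). These are descriptions over 6 libraries that share groups, replicate numbers and depth, and high values at the top of so long a list are usual.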

How the data were processed

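RNA of 3 polyribosomal and 3 total RNA libraries was measured. The authors depleted ribosomal RNA, made strand-specific libraries, mapped the reads to GRCm38 with STAR 2.5.2b, assigned them to genes of Gencode vM6 basic with custom scripts, and deposited whole-number counts per gene. The same deposited table holds the authors' own comparison (mean normalized signal, log2 fold change, its standard error, Wald score and p-values), which was not used here. The source of the total RNA is given in the methods both as an aliquot of synaptoneurosomes and as a part of the lysate.

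Counts were analysed with edgeR 4.0.16 in R 4.3.3, with TMM normalization, filterByExpr, a quasi-likelihood test on group alone and Benjamini-Hochberg adjustment over all genes tested, at a threshold of 0.01. The study used DESeq2 with the same groups and threshold. DESeq2 1.42.0, other normalizations, no filter, the replicate block, thinning, summed loci and leaving out each library were alternatives. Libraries of the same replicate number came from aliquots of 1 preparation, share a label in the table, and deviated together from the group means (correlations 0.366, 0.258 and 0.380). They thus count as paired, while calls are those of group alone. The study's methods name the groups compared and do not say whether pairing was used. SEs and adjusted p-values are those of the unpaired fit, and the paired fit is given where it changes a call. Replicates differed by more than sampling noise. The labels do not say that replicates came from separate animals, and p-values then measure the spread between these libraries. The limit given for the 0 counts of Snurf covers counting error only, whereas the SEs also include the spread between libraries.

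Exons, strands and sequences came from GENCODE vM21 (GRCm38). On simulated data the fit called 3 of 11923 unchanged genes, 56 of 98 genes changed by 1 and 89 of 93 changed by 2 on the log2 scale. The simulated libraries were drawn independently, without the shared deviations of paired libraries, so these rates need not hold for the real ones. The members and lists were chosen with earlier results of these data known. Named were all members, genes overlapping them, list genes past the threshold (or, where none passed, the 2 most abundant), the 3 genes most similar to Snrpn, Ube3a and Gnas, and the nearest 2 tested genes on each side of both loci, of which 1 is not reported here. Genes named for the replicate block, the genes near Ndn and the antisense models were added after the values were seen.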

Additional observations from a re-analysis of the deposited data

How the results depend on the processing

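Of the log2 differences of the 8 tested members, that of Snrpn changed sign, to 0.090 after thinning, and ranged from -0.28 to 0.13 with 1 library left out. The other 7 kept their sign under every alternative that gave a value. With 1 library left out the range was -2.35 to -1.90 for Gm38393, -0.67 to -0.36 for Ube3a, 0.17 to 0.53 for Ndn, 0.34 to 0.46 for Gnas, 1.69 to 2.25 for Gm20721, -0.76 to -0.62 for Peg3 and -0.54 to -0.29 for Impact. Only Gm20721 left the called side, without replicate 2 of total RNA. With the replicate block (paired fit), Ube3a (-0.55), Gnas (0.40), Peg3 (-0.69) and Impact (-0.41) passed the threshold, and with DESeq2 Peg3 did (-0.69). Members called were 2 higher and 4 lower with the replicate block, 2 lower with DESeq2, and 0 and 0 with the overlapping members summed, which leaves no separate Gm38393 or Gm20721, and 0 to 1 higher with 1 library left out. Other imprinted genes called were 6 higher and 7 lower with the replicate block, 3 and 1 without the filter, and 3 higher with DESeq2. Over all genes, where 87 were higher and 289 lower, the calls were 1441 and 1622 with the replicate block, 476 and 566 without the filter, 22 and 91 after thinning, 42 higher with total counts alone, 268 higher with DESeq2, and 0 to 61 higher and 22 to 208 lower with 1 library left out. Total counts alone moved the median of all genes to -0.11, and the signs of the members were those of the edgeR fit. The cause of these changes was not tested. The depth of replicate 3 of total RNA limits every value of that group.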
